A study of Homo sapiens with 12 samples.

Results

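RMRP, RPPH1, TERC and RNVU1-19 encode short RNAs that work as the core of stable RNA-protein particles. They were read here from sequencing of RNA that came through a purification of a tagged protein fragment and of RNA from the whole extract. The 4 rows, of 25369 genes in the deposited tables, were chosen by their low normalized counts in the purified fractions. The values behind that choice are those of the purified and extract fractions of both constructs, so differences that involve a purified fraction are given below as descriptions without tests.

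RNase MRP and RNase P are nuclear ribonucleases whose catalytic subunit is an RNA, RMRP in the first and RPPH1 in the second, and both share most of their proteins. RNase MRP cuts the precursor of ribosomal RNA, and RNase P removes the leader of precursor tRNAs. TERC carries the template that telomerase copies onto chromosome ends, held by the reverse transcriptase TERT and by the dyskerin proteins of the H/ACA family. RNVU1-19 is a variant of U1, the small nuclear RNA that pairs with the start of introns. In human cells compact snRNA-type promoters drive RMRP and RPPH1, read by RNA polymerase III, and U1, read by RNA polymerase II. TERC is also transcribed by RNA polymerase II.

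The study used HEK293T, a human embryonic kidney line that takes up plasmids readily (the growth protocol calls it HEK293). Cells were transfected with a plasmid for a fusion of the Halo tag to a fragment of TNIP2 (residues 196 to 346; the whole protein is an adaptor in NF-kB signalling), or with a plasmid for the Halo tag alone. There were 4 groups with 3 libraries each: TNIP2 Pulldown (RNA purified through the tag on the fragment), TNIP2 Input (RNA of the same construct's extract), Control Pulldown and Control Input (the same fractions with the tag alone). Every library was made after removal of ribosomal RNA, from 90 µl of purified material or 100 µl of extract, and no group held the full-length protein in place of the fragment.

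The deposited values are normalized counts, which put the libraries on a common scale, and FPKM, which also divides by gene length. Depth was 10299327 to 29492292 reads in TNIP2 Pulldown, 3590892 to 6398305 in Control Pulldown, 8886227 to 16776063 in TNIP2 Input and 13761542 to 20763975 in Control Input, as recovered from the steps of the FPKM values. The TNIP2 row, which also takes reads of the plasmid's transcript, had 13318 to 46568 normalized counts in TNIP2 Input and 272 to 304 in Control Input. TNIP2 libraries numbered 3 were the highest for that row in both fractions (46568 in Input and 193013 in Pulldown). Of 7 genes that mark the HEK293 line, PAX2 was near 0 in the extracts (2 to 5 normalized counts) and the other 6 lay at 71 or above in each extract. Blood markers lay between 0 and 4. Of the fibroblast and endothelium markers, COL1A1 lay at 42 to 63, COL3A1 at 28 to 67, PECAM1 at 2 to 9 and VWF at 0 to 3. The liver markers ALB and APOA1 lay at 2 to 12 and 2 to 7. Nothing in the labels says that libraries of a group came from separate cultures, so the p-values below rest on a spread between libraries that may be technical only.

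RMRP and RPPH1 each start close to a protein-coding gene on the opposite strand, and the stretch between is shown because the genes on its sides are compared further on. The sequences are RefSeq's (GRCh38.p14), from the entries for the neighbours, written along the minus strand, which is the strand of RMRP and RPPH1. The first, chr9:35658042-35658291, lies upstream of both RMRP and CCDC107 and ends 22 bases before the RMRP start. The second, chr14:20343412-20343634, fills the space between the starts of PARP2 and RPPH1. Capitals mark the matches to TATAA and to the octamer ATGCAAAT, both searched on both strands.

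RMRP and CCDC107: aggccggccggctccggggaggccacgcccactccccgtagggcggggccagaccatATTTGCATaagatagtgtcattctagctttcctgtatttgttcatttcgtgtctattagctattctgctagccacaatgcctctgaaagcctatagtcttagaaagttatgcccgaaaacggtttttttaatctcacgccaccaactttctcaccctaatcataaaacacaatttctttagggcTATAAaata

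RPPH1 and PARP2: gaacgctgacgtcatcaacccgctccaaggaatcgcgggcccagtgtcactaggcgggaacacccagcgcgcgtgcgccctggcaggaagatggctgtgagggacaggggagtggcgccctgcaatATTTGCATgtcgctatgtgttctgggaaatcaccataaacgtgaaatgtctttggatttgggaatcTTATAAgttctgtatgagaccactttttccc

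TATAA lay 31 to 27 bases before the RMRP start and 30 to 26 bases before the RPPH1 start, where a TTATA match on the other strand overlaps it. The octamer was found as its reverse complement ATTTGCAT, 215 to 208 bases before RMRP and 97 to 90 bases before RPPH1. Among 35116 RefSeq promoters, 18.9% of windows of 250 bases held TATAA on either strand, 1.63% the octamer and 0.490% both. For windows of 223 bases the shares were 17.0%, 1.47% and 0.430%. These matches describe the letters in the windows only.

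In extracts, the 2 ribonuclease RNAs were the most abundant RNAs of the tables per length. RMRP ranked first and RPPH1 second by FPKM in all 6 Input libraries. RMRP had 31461, 32013 and 54509 FPKM in TNIP2 Input, against 39739, 29264 and 22691 FPKM in Control Input. For RPPH1 these values were 23996, 27324 and 47432 FPKM in TNIP2 Input and 34806, 23844 and 18498 FPKM in Control Input. TERC and RNVU1-19 lay far lower, TERC at 181 to 272 FPKM in TNIP2 Input and 177 to 214 FPKM in Control Input, and RNVU1-19 at 229 to 991 FPKM in TNIP2 Input and 740 to 816 FPKM in Control Input. The row lengths that the FPKM values imply were 270, 343 and 454 bases for RMRP, RPPH1 and TERC, close to the RefSeq lengths of 270, 341 and 451 bases. For RNVU1-19 the row length was 337 bases, while RefSeq gives 167 bases, so its FPKM and its place against TERC are uncertain. U1 has many near-identical gene copies, and reads of one copy could have been counted in another, which makes the RNVU1-19 row uncertain on every scale.

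**Figure D1:**
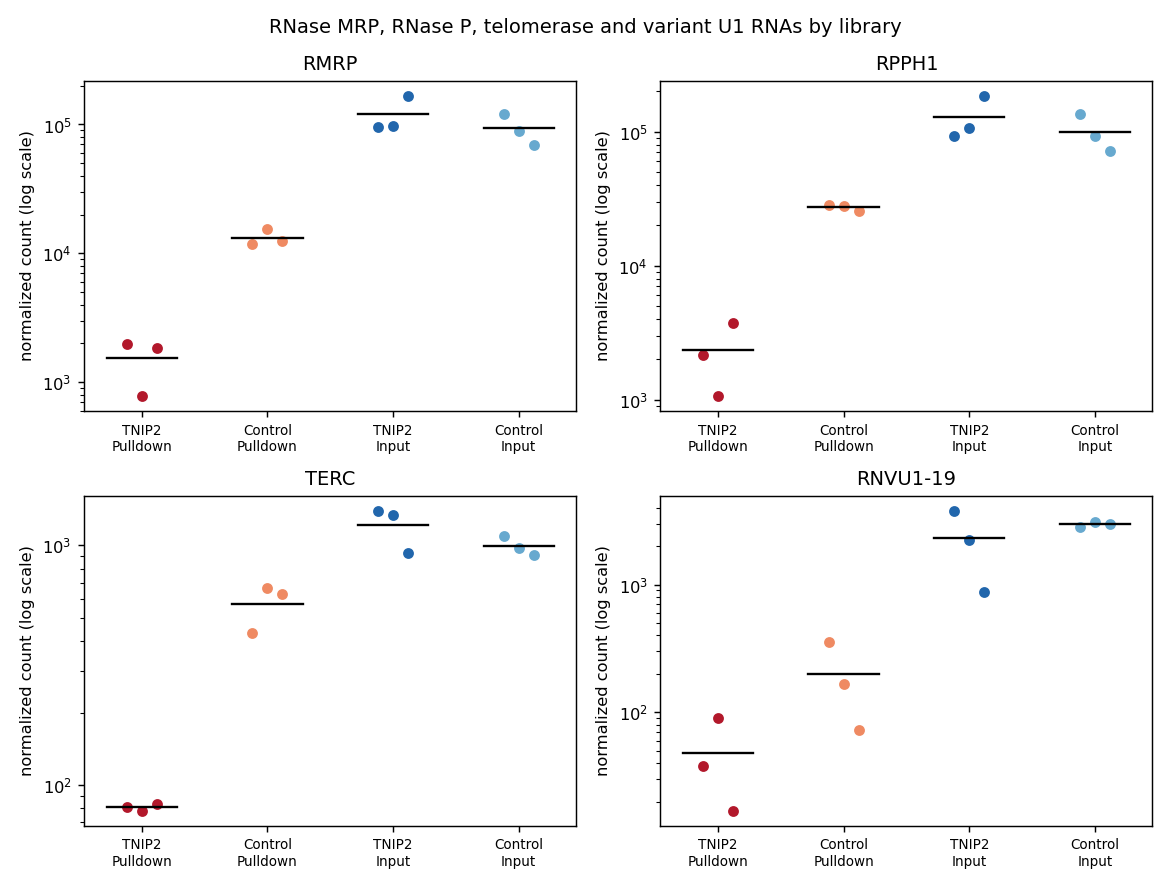
Normalized counts (log scale) of RMRP, RPPH1, TERC and RNVU1-19 in each library of the 4 groups; points are libraries 1 to 3 from left to right and lines are group means. For each RNA the 3 TNIP2 Pulldown libraries sit below all libraries of the other groups except for RNVU1-19, where the highest TNIP2 Pulldown value (90) is above the lowest Control Pulldown value (73).

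RMRP, the RNA of RNase MRP, was far lower in the material purified with the TNIP2 fragment than in its extract. It had 1974, 780 and 1835 normalized counts in TNIP2 Pulldown, against 95929, 97609 and 166201 in TNIP2 Input. With the tag alone it had 11713, 15365 and 12552 in Control Pulldown, against 121167, 89229 and 69188 in Control Input. All Pulldown libraries lay below all Input libraries with each construct, and all TNIP2 Pulldown libraries lay below all Control Pulldown libraries. Its mean in TNIP2 Pulldown was 1.28% of the mean in TNIP2 Input, and in Control Pulldown 14.2% of the mean in Control Input. As a share of all reads of a library, RMRP made up 0.00517% to 0.0145% in TNIP2 Pulldown, 0.114% to 0.150% in Control Pulldown, 0.916% to 1.55% in TNIP2 Input and 0.664% to 1.09% in Control Input.

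RPPH1, the RNA of RNase P, followed the same order of groups, with a smaller difference in the tag-alone fraction. It had 2160, 1066 and 3765 normalized counts in TNIP2 Pulldown, against 93096, 106006 and 184019 in TNIP2 Input. In Control Pulldown it had 28553, 27641 and 25614, against 135033, 92506 and 71766 in Control Input. Again no Pulldown library reached an Input library, and the 2 Pulldown groups did not overlap. The TNIP2 Pulldown mean was 1.82% of the TNIP2 Input mean, and the Control Pulldown mean was 27.3% of the Control Input mean. By FPKM RPPH1 ranked first of all genes in each of the 3 Control Pulldown libraries, but 123rd, 266th and 67th in TNIP2 Pulldown. RMRP ranked 107th, 283rd and 100th in TNIP2 Pulldown and between 3rd and 5th in Control Pulldown.

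The proportion of the 2 ribonuclease RNAs to each other is given as a description, without a test. The ratio of RPPH1 to RMRP, both in FPKM of the same library, was 0.860, 1.07 and 1.61 in TNIP2 Pulldown, against 0.763, 0.854 and 0.870 in TNIP2 Input. It was 1.92, 1.41 and 1.60 in Control Pulldown, against 0.876, 0.815 and 0.815 in Control Input. The means were 1.18 ± 0.388 in TNIP2 Pulldown and 0.829 ± 0.0578 in TNIP2 Input, and 1.64 ± 0.253 in Control Pulldown and 0.835 ± 0.0351 in Control Input (SD, n = 3 each). The extracts of both constructs therefore held RPPH1 and RMRP in nearly one proportion, the Control Pulldown libraries all held relatively more RPPH1, and 1 of the 3 TNIP2 Pulldown libraries (0.860) lay within the range of TNIP2 Input. A ratio within a library does not depend on the scaling between libraries.

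**Figure D2:**
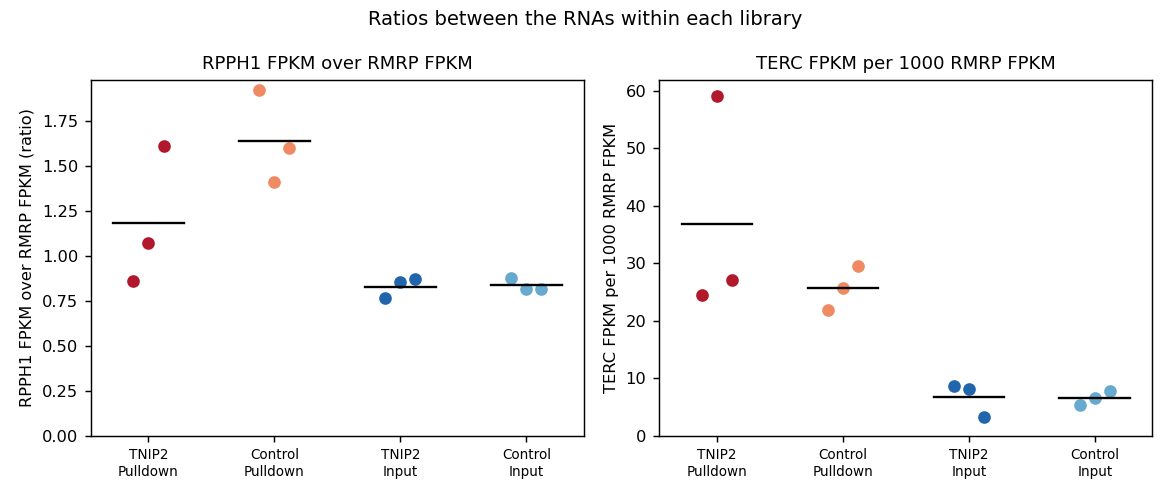
Ratios between RNAs within each library on linear axes: RPPH1 FPKM over RMRP FPKM (left) and TERC FPKM per 1000 FPKM of RMRP (right), with points for libraries 1 to 3 and lines for group means. RPPH1 over RMRP lies at 0.763 to 0.876 in all 6 Input libraries and at 1.41 to 1.92 in Control Pulldown; TERC per 1000 RMRP lies at 21.8 to 59.1 in the Pulldown libraries and at 3.33 to 8.65 in the Input libraries.

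TERC, the template RNA of telomerase, was also lowest in TNIP2 Pulldown, but by less than the ribonuclease RNAs. It had 81, 78 and 83 normalized counts in TNIP2 Pulldown, against 1396, 1338 and 931 in TNIP2 Input. In Control Pulldown it had 430, 662 and 624, against 1097, 975 and 910 in Control Input. The TNIP2 Pulldown libraries lay within 5 normalized counts of each other and did not overlap with any other group, and the Control Pulldown libraries lay between them and the extracts. The means stood at 6.60% of TNIP2 Input in TNIP2 Pulldown and at 57.5% of Control Input in Control Pulldown. Set against RMRP, TERC was relatively more abundant in both purified fractions, with 24.4, 59.1 and 27.0 TERC FPKM per 1000 RMRP FPKM in TNIP2 Pulldown against 8.65, 8.14 and 3.33 in TNIP2 Input. In Control Pulldown these ratios were 21.8, 25.6 and 29.5, against 5.38, 6.49 and 7.82 in Control Input. Behind the TNIP2 Pulldown values of TERC stood 85, 152 and 68 reads.

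RNVU1-19 had the lowest share of its extract level of the 4 RNAs with the tag alone. It had 38, 90 and 17 normalized counts in TNIP2 Pulldown, against 3779, 2237 and 874 in TNIP2 Input. In Control Pulldown it had 355, 167 and 73, against 2820, 3108 and 2970 in Control Input. Each Pulldown group lay below its Input group, but the 2 Pulldown groups overlapped. TNIP2 Pulldown held 2.10% of the TNIP2 Input mean and Control Pulldown 6.69% of the Control Input mean. The spread between libraries of a group was the widest of the 4 RNAs outside Control Input, with library 3 lowest in TNIP2 Pulldown, TNIP2 Input and Control Pulldown, and the TNIP2 Pulldown values rest on 40, 177 and 14 reads.

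On the log2 scale of the fit over all genes, log2(normalized count + 1), TNIP2 Pulldown minus TNIP2 Input was -6.36 for RMRP (SE 0.32), -5.89 for RPPH1 (SE 0.37), -5.61 for RNVU1-19 (SE 0.60) and -3.88 for TERC (SE 0.19). Counted from the lowest of 14627 genes tested, they ranked 1, 2, 3 and 15. All 4 RNAs had every TNIP2 Pulldown library below every TNIP2 Input library, as did 28.1% of all genes tested, and the rule chose them for it. Control Pulldown minus Control Input was -4.17 for RNVU1-19 (SE 0.60), -2.79 for RMRP (SE 0.32), -1.82 for RPPH1 (SE 0.37) and -0.82 for TERC (SE 0.19), at ranks 4, 12, 41 and 297. Here too no library of the 4 RNAs overlapped between fractions, against 7.15% of genes with all Control Pulldown libraries below all of Control Input. TERC thus had the smallest value of the 4 in both comparisons, and RNVU1-19 the largest with the tag alone but not with the fragment.

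Set directly against the tag alone, TNIP2 Pulldown minus Control Pulldown was -3.73 for RPPH1, -3.21 for RMRP, -2.79 for TERC and -2.04 for RNVU1-19 on the same log2 scale. RMRP, RPPH1 and TERC had every TNIP2 Pulldown library below every Control Pulldown library, and so did 29.5% of genes tested. The difference of enrichments is the Pulldown-minus-Input value with the fragment less the one with the tag alone. It was -4.07 for RPPH1 (SE 0.52), -3.57 for RMRP (SE 0.46), -3.07 for TERC (SE 0.27) and -1.43 for RNVU1-19 (SE 0.85), at ranks 8, 14, 34 and 1273 from the lowest. These comparisons share the TNIP2 Pulldown libraries with the first one above, so they repeat part of its values. Leaving out both TNIP2 libraries numbered 3 gave -4.21, -3.49, -3.27 and -1.43. The RNVU1-19 value lay between -2.03 without TNIP2 Pulldown replicate 2 and -0.86 without TNIP2 Pulldown replicate 3, and for TNIP2 Pulldown minus Control Pulldown between -2.63 and -1.46 for the same libraries.

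Between the extracts of the 2 constructs, the one comparison without a purified fraction, none of the 4 RNAs passed the test. TNIP2 Input minus Control Input was 0.35 for RMRP (SE 0.32, 95% interval -0.39 to 1.10), 0.34 for RPPH1 (SE 0.37, -0.51 to 1.19), 0.28 for TERC (SE 0.19, -0.17 to 0.73) and -0.61 for RNVU1-19 (SE 0.60, -1.99 to 0.78). The unadjusted p from limma was 0.292, 0.374, 0.172 and 0.331, and the adjusted p was 1.00 for each. In limma 0 of the 4 were called, 0 had an unadjusted p under 0.05, and voom on recovered reads called 0 as well, against 0.00684% of all genes called in limma. That share is 1 gene, TNIP2 (6.26), whose row also takes reads of the plasmid's transcript. The intervals leave room for differences of up to about 1 on the log2 scale for the ribonuclease RNAs. TNIP2 Input replicate 3 carried the highest RMRP and RPPH1 values of all libraries and the lowest RNVU1-19 and nearly the lowest TERC value of the extracts. Without it the differences were 0.09 for RMRP, 0.04 for RPPH1, 0.46 for TERC and -0.03 for RNVU1-19. Fewer cells with an RNA and less of it per cell cannot be told apart in such bulk extracts.

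All 4 RNAs are short, and short genes as a class lay lower in the purified fractions. Leaving the 4 RNAs out, 258 genes tested had row lengths under 500 bases. For these genes TNIP2 Pulldown minus TNIP2 Input had a median of -0.72, with 56 genes called higher and 115 lower, against a median of 0.01 over all genes and 29.8% called higher and 28.3% lower. The medians were -0.46 for 158 genes under 200 bases, -1.81 for 8 genes of 200 to 300 bases, -1.07 for 92 genes of 300 to 500 bases and 0.27 for 5440 genes of 4000 bases or more. With the tag alone, Control Pulldown minus Control Input had a median of -0.33 over the 258 short genes, with 0 higher and 17 lower, of -0.26 for the 158 genes under 200 bases and of -0.98 for the 8 genes of 200 to 300 bases. Over all genes that median was -0.01, with 0% called higher and 0.137% lower. No short gene lay as low as RMRP, RPPH1 and RNVU1-19 with the fragment, where the lowest short gene had -4.40. With the tag alone the lowest short gene had -4.65, below all 4 RNAs. The part of length in the values of the 4 RNAs was not tested.

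**Figure D3:**
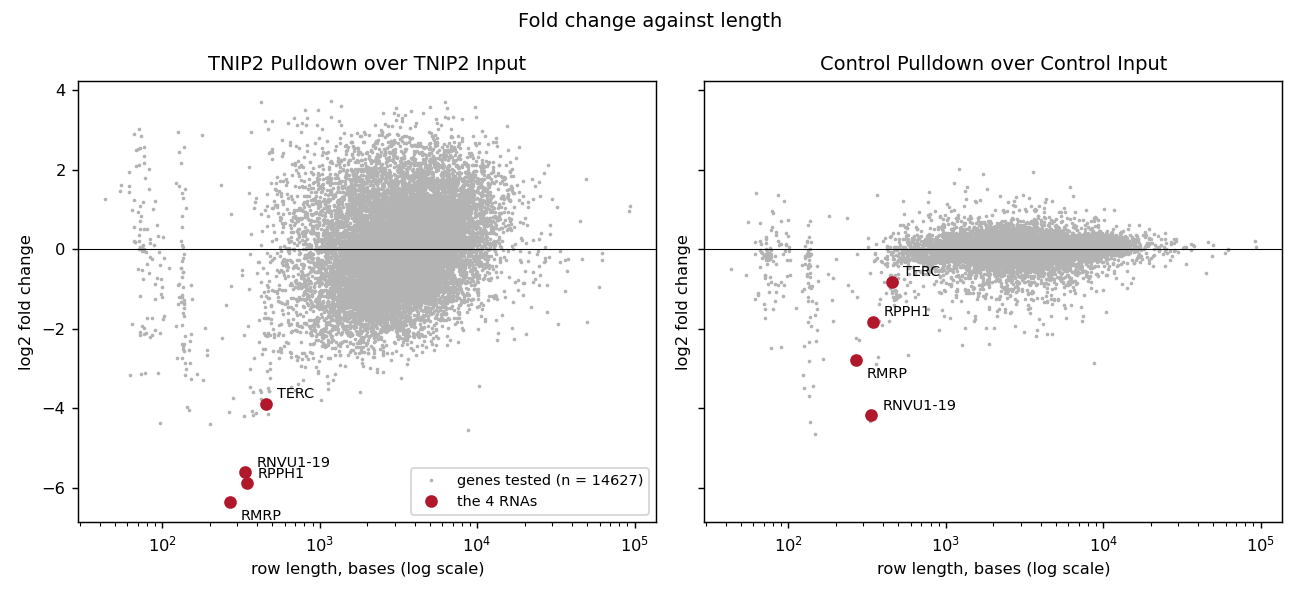
Log2 fold change of Pulldown over Input against row length in bases (log scale) for 14627 genes tested (grey) and for the 4 RNAs (red), with the TNIP2 fragment on the left and the tag alone on the right. RMRP, RPPH1 and RNVU1-19 lie at -6.36, -5.89 and -5.61 on the left, below the grey points, and within the range of the lowest short genes on the right.

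RMRP and RPPH1 were also among the most abundant RNAs of the extracts. For 24 other genes with a mean of 20000 normalized counts or more in the extracts, the median of TNIP2 Pulldown minus TNIP2 Input was -0.11 and that of Control Pulldown minus Control Input was -0.08. PLCG2 had the lowest value of these 24 in both comparisons, with -4.55 and -2.87. The part of abundance in the values of the 4 RNAs was not tested.

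Few other small structured RNAs could be set beside the 4. Of 35 rows for such RNAs 5 passed the filter on low values, and 3 of these fell in TNIP2 Pulldown relative to TNIP2 Input. They were RNU12, RNU4ATAC and RNU11, all RNAs of the minor spliceosome, which removes a rare class of introns. Over all genes 28.3% fell, and over the 258 short genes 44.6%. The filter asked for 10 normalized counts in at least 3 libraries, so a rare RNA could pass through its Input libraries alone. Such a set can lean toward RNAs that are lower in Pulldown, so 3 of 5 is not a like comparison with these shares. RNU12 had 6, 6 and 0 normalized counts in TNIP2 Pulldown, against 32, 37 and 33 in TNIP2 Input, and its log2 fold change was -3.26 (SE 0.58, limma adjusted p = 2.3e-04). No TNIP2 Pulldown library of RNU12 reached 10, so it passed the filter only through other groups and its call adds no separate support. Over the alternatives its value ran from -4.20 to -1.68. RNU4ATAC had -2.39 (adjusted p = 0.00141) and RNU11 -1.61 (adjusted p = 0.00474). Without TNIP2 Pulldown replicate 3 these values were -2.32 for RNU12, -1.79 for RNU4ATAC and -0.92 for RNU11, and the 3 calls stayed. RNU6ATAC, also of the minor spliceosome, had -1.38 (adjusted p = 0.0581), and VTRNA1-3, a vault RNA, had -1.26 (adjusted p = 0.114). All 5 are rare, with at most 73 normalized counts in any library, so their values are less precise than those of RMRP and RPPH1. In Control Pulldown against Control Input limma called 0 of the 5, while 4 had an unadjusted p under 0.05 and voom called 0, and 0.137% of all genes were called lower. Their values there were -2.46 for VTRNA1-3, -2.43 for RNU6ATAC, -2.02 for RNU12, -1.29 for RNU4ATAC and -0.40 for RNU11. In the difference of enrichments limma called 0 of the 5, 0 had an unadjusted p under 0.05 and voom called 0. Over all genes 42.8% were called in that difference. RNU12 had -1.24 (limma adjusted p = 0.243), RNU4ATAC -1.10 (0.259) and RNU11 -1.21 (0.120). A fall beyond that with the tag alone was thus not shown in the main fit. Among alternatives the adjusted p reached 0.0474 for RNU12 and 0.00925 for RNU11. RNU12 was called with the tag alone in 4 alternatives, one of them without TNIP2 Pulldown replicate 3 (adjusted p = 0.00828), against an adjusted p of 0.676 with all libraries. With the fragment RNU6ATAC was called as lower in 6 alternatives and VTRNA1-3 in 2.

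Likeness of other genes to the 4 RNAs was Pearson's r of log2(normalized count + 1) over 12 libraries, searched among 10532 genes. The closest to RMRP were the histone H4 genes HIST1H4H (r = 0.995) and HIST1H4C (0.992) and the histone H2B gene HIST1H2BJ (0.987). RPPH1 ran closest with TRAPPC2L, a subunit of a vesicle-tethering complex (0.990), the histone H3 gene HIST2H3D (0.987) and GSTM3, a glutathione transferase (0.984). For TERC they were TMEM45A (0.985), the histone H3 genes HIST1H3B (0.985) and HIST1H3F (0.981), and for RNVU1-19 the histone H4 genes HIST1H4E (0.933), HIST1H4A (0.926) and HIST1H4H (0.911). HIST1H4H averaged 101 normalized counts in TNIP2 Pulldown and 1816 in TNIP2 Input, and 462 in Control Pulldown and 1620 in Control Input. Such an r takes no account of the size of a change. TNIP2 Pulldown minus TNIP2 Input was -1.91 for TRAPPC2L and -1.38 for GSTM3, against -5.89 for RPPH1. HIST1H4H had -4.17 against -6.36 for RMRP, and HIST1H3B had -3.56 against -3.88 for TERC. Among the 4 RNAs themselves r was 0.987 between RMRP and RPPH1 and lowest, 0.842, between RPPH1 and RNVU1-19. The 12 libraries are 4 groups of 3, so they are not independent points.

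Another 5 lists held genes for the proteins of these particles, for factors that mature the end of TERC and for factors of snRNA-type promoters, here called partner genes. Of 44 tested, the mRNAs of 21 (47.7%) rose and of 14 (31.8%) fell in TNIP2 Pulldown relative to TNIP2 Input, with a median log2 fold change of 0.37. Over all genes 29.8% rose and 28.3% fell, with a median of 0.01. Centring each library on ribosomal protein genes moved the median of all genes by -0.49, with 2365 genes higher and 6072 lower in place of 4358 and 4145, and gave 12 partner genes higher. With the tag alone limma called 0 of the 44, 0 had an unadjusted p under 0.05 and voom called 0, and their log2 fold changes lay between -0.39 and 0.50. In TNIP2 Input against Control Input there were likewise 0 called by limma, 0 at an unadjusted p under 0.05 and 0 by voom. Against Control Pulldown, TNIP2 Pulldown had 20 of the 44 higher and 13 lower (30.6% and 28.7% of all genes), and in the difference of enrichments 15 were higher and 9 lower (22.6% and 20.2% of all genes, 42.8% in either direction).

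Of 11 proteins listed for RNase P and RNase MRP, 10 were tested. Their mRNAs split into 5 that rose, 4 that fell and 1 that did not pass. Over all genes 29.8% rose and 28.3% fell, so a mixed split is common to genes at large. RPP38, which binds the RNA through a kink-turn fold, had 1415, 1471 and 2017 normalized counts in TNIP2 Pulldown, against 359, 280 and 438 in TNIP2 Input. In Control Pulldown it had 289, 316 and 164, against 271, 302 and 296 in Control Input. The TNIP2 Pulldown libraries stood above all others, with a log2 fold change over TNIP2 Input of 2.19 (SE 0.24, limma adjusted p = 2.5e-06). RPP38 and RPP14 were named for the smallest p in each direction, so their opposite directions follow from that choice. RPP14, another subunit, fell, with 547, 445 and 618 in TNIP2 Pulldown against 954, 1009 and 1177 in TNIP2 Input (-0.97, SE 0.17, adjusted p = 1.6e-04). POP1, the largest shared protein, had 562, 337 and 710 in TNIP2 Pulldown against 239, 249 and 387 in TNIP2 Input, groups that overlap (0.85, SE 0.25, adjusted p = 0.00923). Its call ended once libraries were centred on ribosomal protein genes (0.36, adjusted p = 0.381).

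Among 8 telomerase proteins and assembly factors 3 rose, 1 fell and 4 did not pass, beside 29.8% higher and 28.3% lower over all genes. DKC1, dyskerin, the pseudouridine synthase that binds the H/ACA part of TERC, had 5869, 6848 and 4894 normalized counts in TNIP2 Pulldown, against 1630, 1741 and 1347 in TNIP2 Input (log2 fold change 1.89, SE 0.17, limma adjusted p = 3.2e-07). TERT, the reverse transcriptase, had 32, 28 and 20 in TNIP2 Pulldown, against 58, 61 and 45 in TNIP2 Input (-1.02, SE 0.25, adjusted p = 0.00242). These 2 proteins at the centre of telomerase were picked by name and also had the smallest p in each direction of their list. Their mRNAs moved in opposite directions, neither as far as TERC. In the difference of enrichments DKC1 had 1.88 (limma adjusted p = 2.8e-05), while TERT had -0.73 and did not pass (adjusted p = 0.106). Of 6 factors that mature the end of TERC 4 rose and 2 fell, beside the same shares of all genes. PAPD5, which adds short adenosine tails, rose by 1.62 on the log2 scale (SE 0.16, adjusted p = 1.1e-06), and PARN, which removes them, fell by 0.96 on the log2 scale (SE 0.15, adjusted p = 5.5e-05). PAPD5 and PARN were named for the smallest p in each direction, so their opposite directions follow from that choice.

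The U1 snRNP proteins had 4 of 10 mRNAs higher, 4 lower and 2 that did not pass, beside 29.8% higher and 28.3% lower over all genes. SNRPD2, a protein of the Sm ring, had 15440, 13146 and 9511 normalized counts in TNIP2 Pulldown, against 3485, 2868 and 3357 in TNIP2 Input (log2 fold change 1.95, SE 0.18, limma adjusted p = 4.0e-07). SNRPA, which binds a stem-loop of U1, had 905, 971 and 963 in TNIP2 Pulldown, against 1750, 1480 and 1743 in TNIP2 Input (-0.80, SE 0.16, adjusted p = 6.1e-04). Neither overlapped between the fractions, which was favoured by naming both for the smallest p in each direction of this comparison. Of all genes tested, 28.1% had every TNIP2 Pulldown library below every TNIP2 Input library. Of 10 factors of the snRNA-type promoter, the kind before RMRP, RPPH1 and U1, 5 rose, 3 fell and 2 did not pass, beside the same shares. SNAPC1 and SNAPC3 belong to one complex that binds these promoters. They were named for the smallest p in each direction, so their opposite directions follow from that choice. Of the complex's other subunits, SNAPC2 rose (0.79), while SNAPC4 (0.35) and SNAPC5 (-0.22) did not pass. SNAPC1 had 1067, 2213 and 1244 in TNIP2 Pulldown, against 409, 401 and 531 in TNIP2 Input (1.69, SE 0.24, adjusted p = 3.5e-05), and SNAPC3 had 71, 70 and 80 in TNIP2 Pulldown, against 311, 334 and 360 in TNIP2 Input (-2.17, SE 0.16, adjusted p = 7.1e-08).

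**Figure D4:**
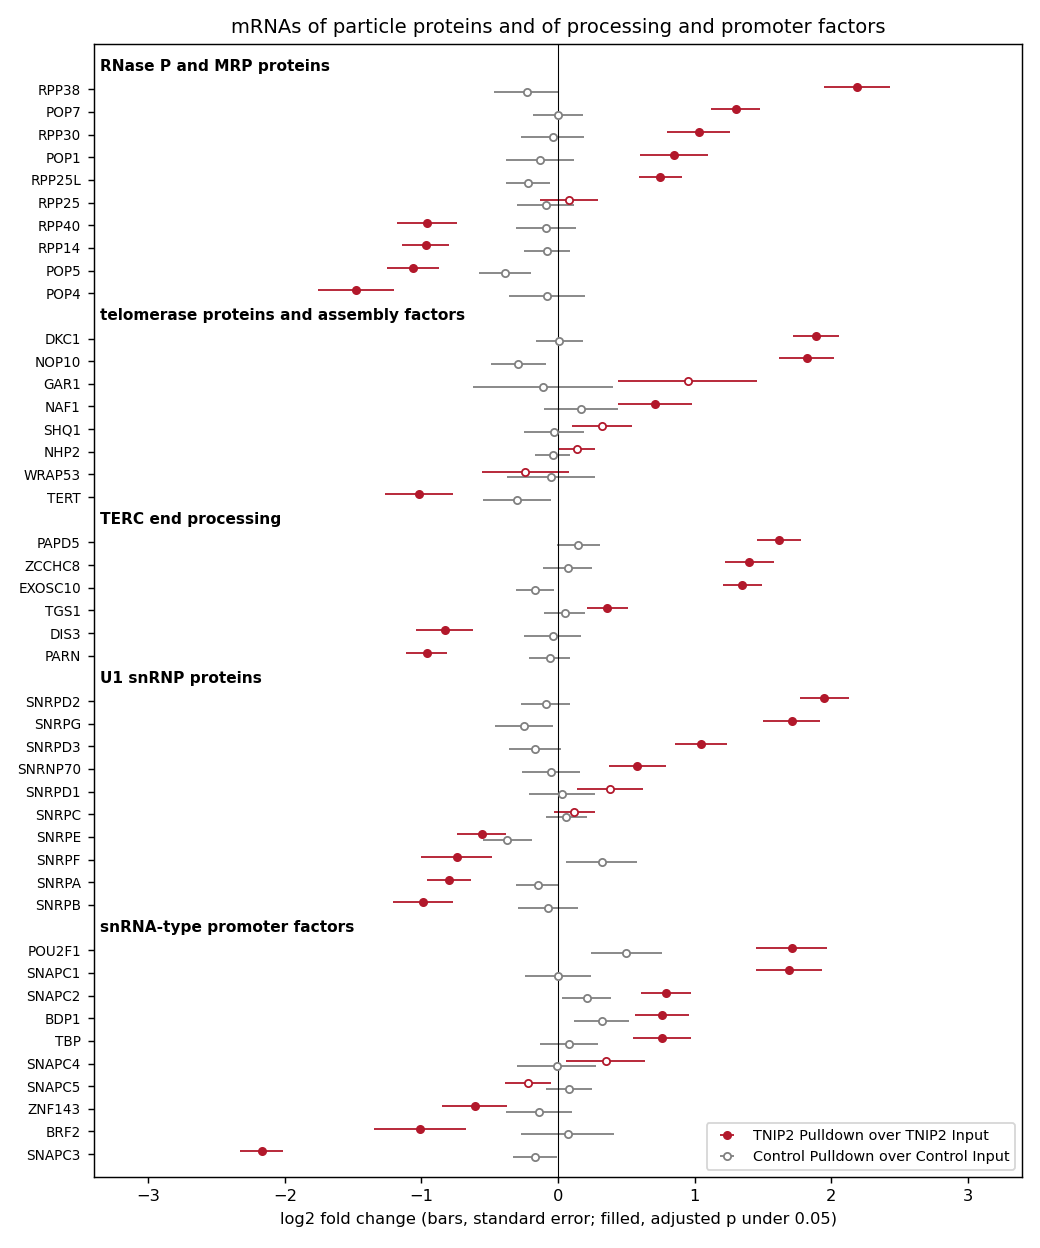
Log2 fold changes of the 44 partner mRNAs tested, by list, for TNIP2 Pulldown over TNIP2 Input (red) and Control Pulldown over Control Input (grey); bars are standard errors and filled points passed an adjusted p of 0.05. The red points run from -2.17 (SNAPC3) to 2.19 (RPP38) in mixed directions in every list, and the grey points stay between -0.39 and 0.50 with none filled.

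Of the protein-coding genes that start next to RPPH1 and RMRP, PARP2 moved the other way from RPPH1, while CCDC107 was lower like RMRP. PARP2, a DNA-damage-activated ADP-ribosyltransferase whose start lies 224 bases from that of RPPH1, had 2917, 5930 and 3324 normalized counts in TNIP2 Pulldown, against 583, 652 and 327 in TNIP2 Input. With the tag alone it had 421, 577 and 359 in Control Pulldown, against 307, 478 and 602 in Control Input. PARP2 thus rose where RPPH1 was lowest, by 2.95 on the log2 scale (SE 0.32, limma adjusted p = 2.2e-06), with no overlap between TNIP2 Pulldown and the other groups. CCDC107, whose start lies 273 bases from that of RMRP, fell, with 45, 43 and 43 in TNIP2 Pulldown against 113, 95 and 63 in TNIP2 Input (-0.99, SE 0.23, adjusted p = 0.00204). In Control Pulldown it had 143, 106 and 106, against 81, 96 and 102 in Control Input, where RMRP was lower in every Pulldown library. Near TERC, MYNN, a zinc finger protein, had 0.55 (adjusted p = 0.0268), a call that ended under the same centring (0.06, adjusted p = 0.853) and in 6 other alternatives (adjusted p between 0.0553 and 0.111). ACTRT3 (-0.60, adjusted p = 0.139) and LRRC34 (-0.38, adjusted p = 0.136), also next to TERC, did not pass, though both did with that centring (-1.08, adjusted p = 0.0137, and -0.87, adjusted p = 0.00209). Strand was not given for the counting, and reads of genes that overlap on opposite strands cannot be told apart.

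**Figure D5:**
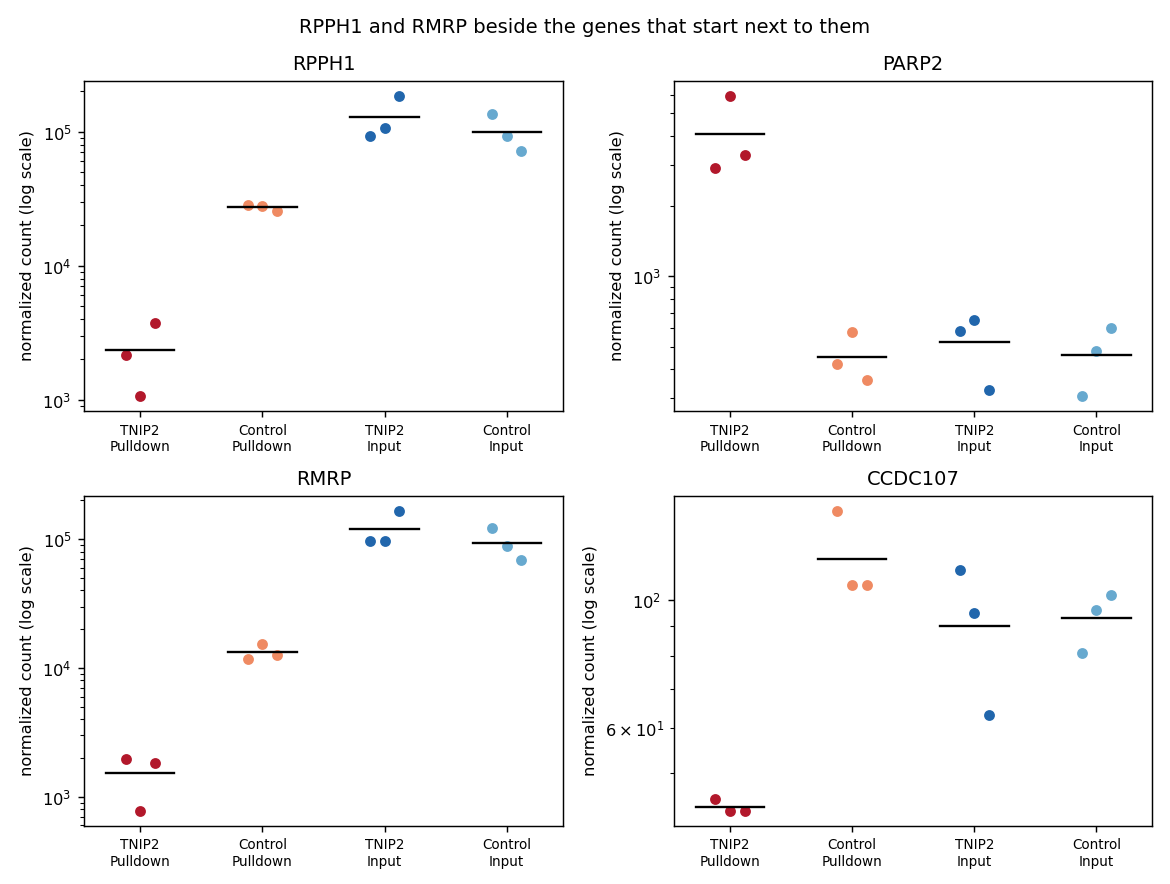
Normalized counts (log scale) of RPPH1 and RMRP on the left and of the genes that start next to them, PARP2 and CCDC107, on the right; points are libraries 1 to 3 and lines are group means. TNIP2 Pulldown is the lowest group for RPPH1, RMRP and CCDC107 and the highest for PARP2, with 2917 to 5930 normalized counts.

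RNase P also trims the ends of MALAT1 and NEAT1, long nuclear RNAs, and neither row passed the test with all libraries and no block. MALAT1 had 4180, 21353 and 3471 normalized counts in TNIP2 Pulldown, against 7249, 13314 and 2155 in TNIP2 Input (log2 fold change 0.19, SE 0.62, limma adjusted p = 0.812). NEAT1 had 181, 591 and 126 in TNIP2 Pulldown, against 660, 1075 and 129 in TNIP2 Input (-0.92, SE 0.62, adjusted p = 0.218). With this construct library 2 was the highest and library 3 the lowest for both RNAs in both fractions. NEAT1 passed as lower without TNIP2 Input replicate 3 (-1.82, adjusted p = 0.00399), without TNIP2 Pulldown replicate 2 (-1.57, adjusted p = 0.0433) and without both TNIP2 libraries numbered 3 (-1.36, adjusted p = 0.00804). It also passed with the replicate number of the TNIP2 libraries as a block (-0.92, adjusted p = 0.00450). In Control Pulldown MALAT1 had 7183, 9022 and 7248, against 4239, 6687 and 7378 in Control Input.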

How the data were processed

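RNA sequencing of 12 HEK293T libraries in 4 groups of 3 was analysed from 2 tables by gene symbol. Per the submitters' processing notes, TopHat2 2.0.14 and DESeq2 1.6.3 were used with hg19. How reads were counted, with which annotation and strand setting, is not given in the sources used here. Of the tables, the first that the authors deposited holds normalized counts, used here as a score because they are whole numbers after scaling, and the second holds FPKM values, which the authors scaled to library size and gene length. Columns with the letter F were taken as the TNIP2 fragment by elimination: C, I and P stand for control, input and pulldown in the labels.

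The low FPKM values of a library are multiples of a step, from which reads and row lengths were recovered; 19 to 1050 low values were checked per library, of which 95.6% to 100.0% were whole within 0.1 reads. One read was worth 0.511 to 2.86 normalized counts, so low genes are least precise in Control Pulldown. Of 25369 genes, 4492 were at 0 throughout, and 14627 reached 10 in at least 3 libraries and were tested, all 4 RNAs among them. log2(normalized count + 1), which understates changes of low genes, was fitted for all 12 libraries in limma 3.58.1 under R 4.3.3 (1 mean for each group, lmFit, eBayes with trend, 8 residual degrees of freedom). P-values are two-sided, adjusted by Benjamini-Hochberg over all genes tested, with the threshold for a call at 0.05. The fit was tested on simulated data. Intervals at 95% use the standard error and 8 degrees of freedom. Values are given as mean ± SD where n = 3.

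The 4 RNAs and the gene lists were chosen with earlier results of these data known. Named are the 4 RNAs, the smallest p in each direction per partner list with TERT, DKC1 and POP1, each small structured RNA tested, neighbouring genes, MALAT1 and NEAT1 as RNAs that RNase P cleaves, and the 3 genes with the highest r per RNA among those averaging 100 or more. PLCG2 was named after its value was seen. A planned count model was set aside because the values are normalized. Alternatives were pseudocounts of 0.5 and 10, no filter, a filter of 50, FPKM, quantile normalization, centring on 77 ribosomal protein genes, voom on recovered reads, fits of only the groups compared, the replicate number as a block, each library left out, and, added after seeing the data, both TNIP2 libraries numbered 3 left out and the replicate number as a block within the TNIP2 libraries. By their deviations from the group means, same-numbered TNIP2 Pulldown and TNIP2 Input libraries were alike. The 3 same-number correlations were 0.369 to 0.497, and those of other numbers -0.447 to 0.274. Deviations within a group sum to 0, which pushes the latter down, so the correlations do not establish pairs. The main fit used no pairing. The labels state no pairing. Between the other groups the same-number correlations (-0.202 to 0.210) did not all pass 0.1.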

Additional observations from a re-analysis of the deposited data

Results flagged for a closer look

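For 12 of the named genes the Pulldown-over-Input change differed between constructs by the limma test of the difference itself, which 42.8% of all genes tested also passed. The partner genes among them were named for a small p in TNIP2 Pulldown minus TNIP2 Input, or picked by name. That comparison is part of the difference, so their passing was favoured by the choice and adds no separate support. The 42.8% is therefore not a like comparison. The values below are differences of enrichments on the log2 scale, TNIP2 minus Control. For the proteins of RNase P and MRP they were 2.42 for RPP38, 0.97 for POP1 and -0.89 for RPP14. DKC1 had 1.88, PAPD5 1.47 and PARN -0.90. The U1 proteins SNRPD2 and SNRPA had 2.04 and -0.66, and the promoter factors SNAPC1 and SNAPC3 had 1.69 and -2.00. PARP2, beside RPPH1, had 2.95, and CCDC107, beside RMRP, had -1.33. The calls of POP1 and SNRPA were the least stable: that of POP1 ended in 11 alternatives, with an adjusted p of up to 0.556, and that of SNRPA in 6, with an adjusted p of up to 0.0880.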

How the results depend on the processing

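The 4 RNAs kept their direction in every Pulldown comparison under each alternative run, and none was called between the extracts under any. Centring on ribosomal protein genes, which moved the median of all genes by -0.49 for TNIP2 Pulldown minus TNIP2 Input and by -0.61 for the difference of enrichments, gave differences of enrichments of -4.17 for RMRP, -4.67 for RPPH1 and -3.67 for TERC, and -4.37 and -3.15 for TERC in TNIP2 Pulldown minus TNIP2 Input and minus Control Pulldown. Under quantile normalization RPPH1 had -4.30 for TNIP2 Pulldown minus Control Pulldown, and its uncalled value between extracts turned to -0.06. Among partner genes that centring gave 12 higher in TNIP2 Pulldown over TNIP2 Input in place of 21, and 8 higher and 14 lower in the difference of enrichments in place of 15 and 9. All genes tested shifted the same way. In TNIP2 Pulldown over TNIP2 Input 2365 were higher in place of 4358. In the difference of enrichments 1414 were higher and 4994 lower in place of 3301 and 2960. With each library left out in turn the 9 partner genes lower in the difference of enrichments were between 4 (without Control Pulldown replicate 2) and 10. They were 5 without Control Pulldown replicate 1 or Control Input replicate 3. The uncalled value of MALAT1, which was 0.78 without TNIP2 Input replicate 2, turned to -0.50 (quantile), -0.30 (centring), -0.64 (without TNIP2 Pulldown replicate 2), -0.54 (without TNIP2 Input replicate 3) and -0.06 (without both TNIP2 libraries numbered 3). Causes were not tested.

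The replicate number as a block over all libraries left the log2 values as they were (RMRP -6.36 in TNIP2 Pulldown minus TNIP2 Input) and changed no call of a named gene. A block within the TNIP2 libraries, whose same numbers correlated, was also run. In the difference of enrichments it gave 19 partner genes higher and 11 lower in place of 15 and 9. Over all genes tested it gave 4163 higher and 3742 lower in place of 3301 and 2960, so calls rose there too. This block added the call of NEAT1 as lower (limma adjusted p = 0.00450) and changed no other call of a named gene. Planned edgeR and DESeq2 fits on recovered reads were not run, since the deposited values are not counts, and voom used library factors implied by the deposited tables in place of TMM. Over single libraries left out, TNIP2 Pulldown minus TNIP2 Input ranged from -6.60 to -5.93 for RMRP, -6.33 to -5.42 for RPPH1, -4.07 to -3.77 for TERC and -6.20 to -5.03 for RNVU1-19. Depth limits RNVU1-19 and TERC in TNIP2 Pulldown and the minor spliceosome RNAs, while RMRP and RPPH1 had over 1000 reads in every library.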
